A study of Mus musculus with 4 samples.

Results

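Imprinted genes, which cells transcribe mainly from the copy inherited from a single parent, were measured in mouse embryonic fibroblasts (MEFs) at a late and an early passage. The group holds 39 genes, chosen by name from general knowledge of mouse imprinting. The list was drawn up with the change between passage 7 and passage 2 already known on these arrays, where Slc38a4 and Dlk1 were among the genes with the largest falls, and so it counts as selected on that change. The changes between passages given here are therefore descriptions of the members and not a test of the group. By the parental copy that mice are known to express, 23 members are paternally and 16 maternally expressed. Of the 39 members, 33 had a probe listed under a RefSeq transcript of the gene, out of 17466 genes named on the array, and 68 probes measured them. The other 6 members, H19, Magel2, Meg3, Rtl1, Airn and Kcnq1ot1, were not analysed here.

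Imprinting rests on DNA methylation laid down in the egg or sperm at imprinting control regions and kept through every later cell division, so that the parental copies of a gene behave differently in the same nucleus. Many paternally expressed genes promote growth of the fetus and placenta, and several maternally expressed genes restrain it. Some members are imprinted only in placenta or brain, as is known for Cd81, Tssc4 and Ascl2 in placenta and for Blcap and Trappc9 in brain, and the arrays measured total RNA of both copies, so no value given here says which copy was transcribed.

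The MEFs were cultured in medium with serum and compared at passage 7, when replicative senescence set in, and at passage 2, when they still grew. The labels name no strain or genotype. They state 3 independent cultures whose RNA was pooled before measurement, and each passage was read on 2 arrays, so the spread between the arrays of a passage may be technical and does not measure the spread between cultures. Levels are given as log2 signal relative to the 75th percentile of the array's probes, so that 0 means a signal at that percentile, and they are compared only within a probe. Signals well above background made up 70.6% and 65.8% of spots at passage 7 and 71.9% and 72.7% at passage 2, and no spot was saturated. Each array had its own place on a single slide, so passage cannot be told apart from place on the slide. Precision is limited by having 4 arrays.

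A gene was called higher or lower when its adjusted p was under 0.05 in limma, fitted over 13846 genes, and its change was at least 2-fold. This called 19.4% of the genes, 10% as higher and 9.43% as lower at passage 7. The members Snrpn, a splicing protein, and Slc22a3, an organic cation transporter, were not well above background on both arrays of either passage and were not tested, which left 31. Of these 31 tested members, 10 were called lower and 3 higher, a share of 41.9%. Over all genes the median log2 change was 0.20, and medians of groups are given relative to it.

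Most paternally expressed members had lower and most maternally expressed members higher signal at passage 7, with a positive change in 5 of 18 and in 10 of 13. Most genes on the array also had a positive change, 8391 of 13846. Of 18 tested paternally expressed genes, 8 fell and none rose by the limma call, while 12 were lower and 1 higher at an unadjusted p under 0.05. Of 13 tested maternally expressed genes, 3 rose and 2 fell, while 3 were lower and 8 higher at an unadjusted p under 0.05. Over all genes that threshold was passed by 17.4% as lower and by 24.2% as higher. The median change was -1.35 relative to all genes for the paternally expressed and 0.49 for the maternally expressed ones. The medians differed by -1.84 on the log2 scale, paternal minus maternal, and by -1.99, -1.63, -1.83 and -1.52 in the 4 pairings of a passage 7 array with a passage 2 array. Among the paternally expressed genes 15 of 18 lay below the median of all genes, and among the maternally expressed genes 9 of 13 lay above it. With only the members known to be imprinted in most tissues, 15 paternally and 3 maternally expressed, the difference of medians was -1.72. Members share loci and arrays and are not replicates, so no p is given for this difference. The passages did not overlap between arrays for 27 of the 31 tested members, against 68.5% of all genes. Leaving out an array leaves its passage with 1 array, so the fit takes its spread from the other passage's 2 arrays and assumes that the lone array varies like them. With either passage 7 array left out, 7 of the 13 calls held: 0 members were higher and 7 lower without replicate 1, where 9.06% of all genes were called, and 0 higher and 8 lower without replicate 2, where 8.27% were. Those 7 were Slc38a4, Dlk1, Mest, Plagl1, Peg3, Nnat and Zim1.

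**Figure D1:**
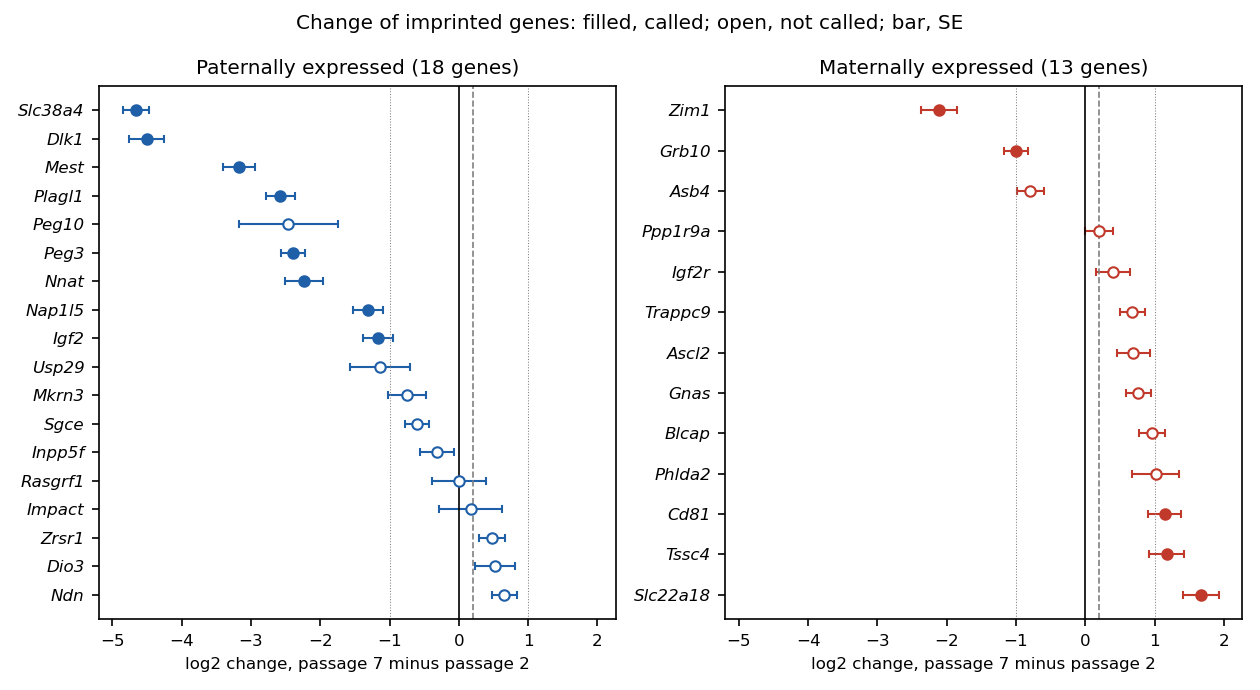
Change of each tested imprinted gene between passage 7 and passage 2 (log2, x axis), with paternally expressed genes on the left and maternally expressed genes on the right. Points are the fitted change of the brightest probe, bars the SE, filled points genes called at an adjusted p under 0.05 and 2-fold; dotted lines mark 2-fold and the dashed line the median of all genes, 0.20. The paternally expressed genes reach down to -4.66, while the maternally expressed genes run between -2.11 and 1.66.

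The members with the largest changes were Slc38a4, Dlk1 and Mest, all paternally expressed. Slc38a4, a transporter of neutral amino acids, had levels of -2.92 and -2.81 at passage 7 and of 1.70 and 1.91 at passage 2, a change of -4.66 ± 0.19 (SE), or 25.4-fold lower. With normexp background correction that change was -3.24, and with flagged backgrounds replaced it was -3.97. Dlk1, a transmembrane inhibitor of adipocyte differentiation, had levels of 0.32 and 0.54 at passage 7 and of 5.21 and 4.66 at passage 2, and was 22.8-fold lower (-4.51 ± 0.26). Mest, which encodes a hydrolase-like protein and whose loss from the paternal copy restricts growth, had levels of 0.67 and 0.44 at passage 7 and of 3.53 and 3.92 at passage 2, and fell 9.04-fold. In these 3 genes each passage 7 array lay well below each passage 2 array, and the gap was many times the distance between arrays of a passage. Each of the 3 was read by a single probe.

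Plagl1, a zinc finger transcription factor that activates other imprinted genes, had levels of -0.22 and -0.32 at passage 7 and of 2.12 and 2.49 at passage 2, a change of -2.58 ± 0.21 (5.97-fold lower). Igf2, the fetal growth factor that signals through the IGF1 and insulin receptors, moved less, with 5.41 and 5.63 at passage 7 and 6.85 and 6.51 at passage 2 (-1.16 ± 0.22, 2.24-fold lower). The passages did not overlap for either gene. Leaving out passage 7 replicate 1 or 2 ended the call of Igf2 (limma adjusted p = 0.125 and 0.0930), and leaving out passage 2 replicate 1 took its change under 2-fold (-0.99). Quantile normalisation gave -1.83.

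The other 3 paternally expressed genes that fell were Peg3, Nnat and Nap1l5. Peg3, a zinc finger protein that represses transcription, had levels of -4.27 and -4.25 at passage 7 and of -1.80 and -1.93 at passage 2, and was 5.25-fold lower (-2.39 ± 0.18). Nnat, neuronatin, a small membrane protein of brain and adipose tissue, had levels of -3.31 and -3.42 at passage 7 and of -0.81 and -1.45 at passage 2, and was 4.72-fold lower (-2.24 ± 0.28). Nap1l5, a relative of nucleosome assembly proteins, had levels of -2.93 and -2.65 at passage 7 and of -1.61 and -1.35 at passage 2, and was 2.49-fold lower (-1.31 ± 0.21). No array of passage 7 reached the level of any passage 2 array in these genes. The call of Nap1l5 ended when passage 7 replicate 1, passage 7 replicate 2 or passage 2 replicate 2 was left out (limma adjusted p = 0.0938, 0.0621 and 0.0559). With normexp background correction the changes were -0.17 for Peg3, -0.46 for Nnat and -0.10 for Nap1l5. With flagged backgrounds replaced they were -1.16 for Peg3 and -0.86 for Nap1l5, which ended both calls (limma adjusted p = 0.0714 and 0.105), and -1.32 for Nnat, which kept its call.

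**Figure D2:**
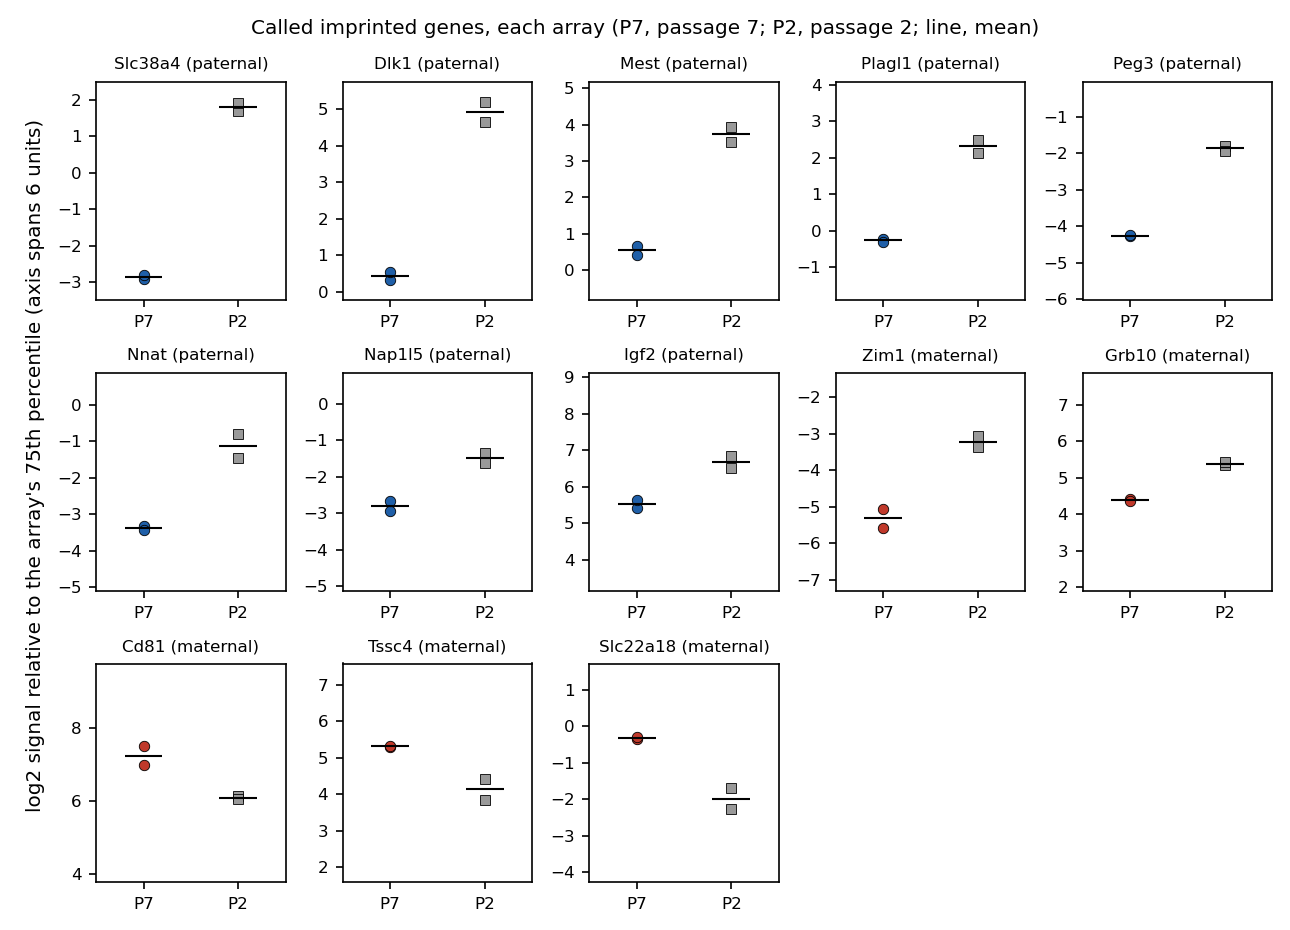
Level on each array for the 13 called imprinted genes, as log2 signal relative to the array's 75th percentile, with passage 7 (P7) left of passage 2 (P2). Points are arrays, lines are means, blue marks paternally and red maternally expressed genes at passage 7, and every axis spans 6 units, so distances can be compared between panels although levels cannot. In each of the 13 genes the 2 arrays of passage 7 lie apart from the 2 of passage 2.

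Of the 10 tested paternally expressed genes that were not called, 5 had changes below 0. Peg10, a retrotransposon-derived protein needed for the placenta, had -5.87 and -6.32 at passage 7 and -2.61 and -4.66 at passage 2, and the distance between its passage 2 arrays gave the change of -2.46 an SE of 0.71. Only 1 of the 2 passage 7 arrays read it well above background. Leaving out passage 2 replicate 1 (-1.43) or replicate 2 (-3.48) let it pass (limma adjusted p = 0.0435 and 0.0292). Usp29, a ubiquitin peptidase, was not well above background on either passage 7 array (-7.49 and -6.28, against -5.82 and -5.67 at passage 2). Between passage means its signal was at least 1.99-fold lower at passage 7, a bound that does not hold for each array. The fitted change of -1.14 did not pass (limma adjusted p = 0.120). Leaving out passage 7 replicate 2 let it pass (-1.75, limma adjusted p = 0.0345). The ubiquitin ligase Mkrn3 had a change of -0.75, the epsilon-sarcoglycan Sgce one of -0.61 and the phosphoinositide phosphatase Inpp5f one of -0.32. Peg10 and Usp29 also passed with quantile normalisation (limma adjusted p = 0.0297 and 0.0402) and with median scaling (0.00039 and 0.0116). With the authors' values Peg10 passed (0.0222) and Usp29 did not (0.216). With normexp background correction the changes of Peg10, Mkrn3 and Usp29 were positive (0.82, 0.60 and 1.71), and that of Usp29 also with flagged backgrounds replaced (0.57). Peg10 had -0.34 with flagged backgrounds replaced and did not pass.

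The other 5 had changes of 0 or above. Ndn, which encodes the growth suppressor necdin, had levels of 3.68 and 3.60 at passage 7 and of 3.07 and 2.91 at passage 2 (0.66 ± 0.18). The thyroid hormone deiodinase Dio3 had a change of 0.52 ± 0.29 and the splicing factor relative Zrsr1 one of 0.48 ± 0.19, while Impact, a regulator of translation, had 0.17 ± 0.46 and the Ras exchange factor Rasgrf1 0.00 ± 0.38. Ndn and Dio3 kept a positive change under each scaling and background correction tried. Zrsr1 and Impact turned negative with normexp background correction (-0.01 and -0.02), and Rasgrf1 turned negative under quantile normalisation (-0.16), under median scaling (-0.17) and with the authors' values (-0.22).

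The 3 maternally expressed genes that rose all belong to the Kcnq1 domain, a cluster on chromosome 7. Where its genes are imprinted, the noncoding RNA Kcnq1ot1 silences the paternal copy. All 3 are classed here as imprinted only in a limited range of tissues. Of the 3 tested maternally expressed members known to be imprinted in most tissues, 0 were called higher and 1 lower. Slc22a18, a membrane transporter, had levels of -0.35 and -0.28 at passage 7 and of -1.68 and -2.27 at passage 2, and was 3.17-fold higher (1.66 ± 0.26). Tssc4, a factor of spliceosome assembly, had 5.30 and 5.32 at passage 7 and 4.42 and 3.85 at passage 2 (2.26-fold higher). Cd81, a tetraspanin of the cell surface, had 6.98 and 7.49 at passage 7 and 6.14 and 6.03 at passage 2 (2.22-fold higher). In all 3 the lowest passage 7 array lay above the highest passage 2 array.

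The domain's other 2 tested members had changes of the same sign without passing. Phlda2, which restrains growth of the placenta, had -2.79 and -2.86 at passage 7 and -3.40 and -4.29 at passage 2 (1.02 ± 0.34). Ascl2, a transcription factor of trophoblast and intestinal stem cells, had -3.46 and -3.05 at passage 7 and -3.79 and -4.09 at passage 2 (0.69 ± 0.24). The changes of these 5 members were above 0 and above the median of all genes under each setting tried, with the lowest being 0.27 for Ascl2 in the authors' value table. Cdkn1c, a maternally expressed gene of the same domain outside the 39, went the other way, with a change of -0.82 ± 0.17 (limma adjusted p = 0.033). Its adjusted p in limma was 0.138 with the mean of all its probes (-0.66) and 0.101 with flagged backgrounds replaced (-0.76).

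The calls in this domain were close to the threshold. Without either passage 7 array none of its genes passed in limma. The adjusted p of Slc22a18 was then 0.0507 without replicate 1 and 0.0597 without replicate 2, that of Cd81 0.0595 and 0.185, and that of Tssc4 0.113 and 0.137. With passage 2 replicate 1 left out, Cd81 did not pass (0.0636) and Phlda2 did (1.46, limma adjusted p = 0.0262). With passage 2 replicate 2 left out, neither Cd81 (0.0955) nor Tssc4 (0.0583) passed. With quantile normalisation the change of Cd81 was 0.46 and that of Tssc4 0.66, and the authors' values gave 0.83 and 0.76. With flagged backgrounds replaced Slc22a18 and Tssc4 did not pass (1.36 and 1.04, limma adjusted p = 0.0507 and 0.0838), while Cd81 did (1.25, 0.0384). Without the filter on dim probes Cd81 and Tssc4 did not pass (limma adjusted p = 0.0716 and 0.0748), while Slc22a18 did (0.0450).

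The other 2 called maternally expressed genes fell. Zim1, a zinc finger protein of the Peg3 domain, had levels of -5.57 and -5.06 at passage 7 and of -3.36 and -3.06 at passage 2, and was 4.31-fold lower (-2.11 ± 0.26). With normexp background correction its change was 0.63 (limma adjusted p = 0.802), and with flagged backgrounds replaced -0.47. Grb10, an adaptor that damps insulin and IGF1 receptor signalling, had 4.40 and 4.35 at passage 7 and 5.34 and 5.41 at passage 2, and was 2.01-fold lower, just past the 2-fold limit. Its call ended when passage 7 replicate 1, passage 7 replicate 2 or passage 2 replicate 2 was left out (limma adjusted p = 0.118, 0.154 and 0.0536).

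Of the 8 maternally expressed genes that were not called, Blcap, a regulator of apoptosis, came closest, 1.95-fold higher with 3.89 and 3.85 at passage 7 and 3.01 and 2.79 at passage 2. Leaving out passage 2 replicate 1 let it pass (1.07, limma adjusted p = 0.0343). Gnas, the alpha subunit of the stimulatory G protein, had 6.22 and 6.41 at passage 7 and 5.54 and 5.56 at passage 2 (0.76 ± 0.18), and Trappc9, a subunit of a vesicle tethering complex, had a change of 0.68 ± 0.18. Igf2r, the receptor that carries IGF2 to the lysosome for degradation, had 5.56 on both arrays at passage 7 and 4.88 and 5.43 at passage 2. Its change of 0.40 ± 0.25 did not pass, and it was -0.19 with quantile normalisation. The ubiquitin ligase adaptor Asb4 had a change of -0.79 ± 0.19 (0.22 with normexp), and the actin-binding neurabin Ppp1r9a one of 0.19 ± 0.20, which turned to -0.03 with the authors' values. Gnas and Grb10 are known to make several transcripts that differ in imprinting, and these were not told apart here.

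Neighbours in the same imprinted locus did not always move together. In the Peg3 domain the paternally expressed Peg3 and the maternally expressed Zim1 both fell, with changes of -2.39 and -2.11, and Usp29 had a fitted change of -1.14. These changes depended on the background correction. Peg3, Zim1 and Usp29 had -0.17, 0.63 and 1.71 with normexp, and -1.16, -0.47 and 0.57 with flagged backgrounds replaced. Nnat lies within an intron of Blcap and is expressed from the other parental copy. Nnat fell by 2.24 on the log2 scale, while Blcap had a change of 0.96. In the Dlk1-Dio3 domain, Dlk1 fell by 4.51 while Dio3, at the other end of the domain and also paternally expressed, had a change of 0.52. In the Snrpn-Ndn domain, Mkrn3 had -0.75 and Ndn 0.66. Around Peg10, the paternally expressed Peg10 and Sgce had -2.46 and -0.61 and the maternally expressed Asb4 and Ppp1r9a -0.79 and 0.19, and none of these 4 passed.

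**Figure D3:**
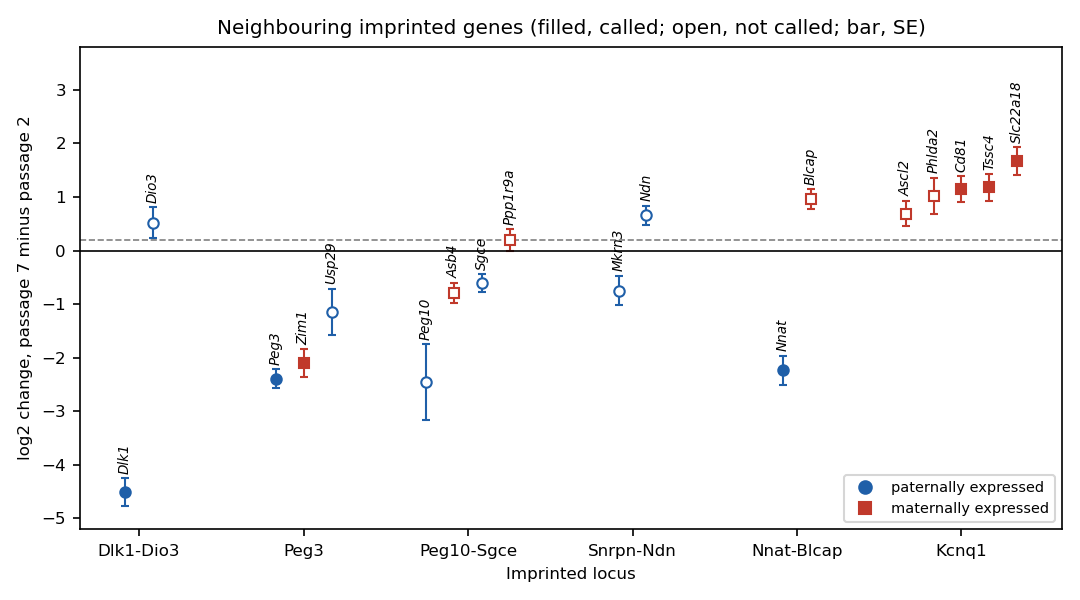
Change between passage 7 and passage 2 (log2, y axis) of the tested genes in 6 imprinted loci with more than 1 tested member. Blue circles are paternally and red squares maternally expressed genes, filled symbols are called genes, bars are SEs and the dashed line is the median of all genes, 0.20. The 5 genes of the Kcnq1 domain lie above that line, the 3 of the Peg3 domain lie below 0, and the Nnat-Blcap and Dlk1-Dio3 loci hold genes on both sides.

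Different probes of a tested member gave the same direction. Of the 22 tested members with more than 1 probe, all 22 had 1 sign at every probe, including all 9 called members with further probes. The same share over all genes is not given here. Among the 22 is Rasgrf1, whose brightest probe had a change of 0.00. In a fit over 30870 probes, which called 17.2% of them, 6 of 61 tested member probes rose and 17 fell, beside 8.72% of all probes that rose and 8.53% that fell. The 3 Plagl1 probes changed by -2.58, -2.50 and -2.47, the 2 Nnat probes by -2.24 and -2.23, and the 2 Igf2 probes by -1.16 and -1.13. The 2 Slc22a18 probes changed by 1.66 and 1.78 and the 2 Cd81 probes by 1.15 and 1.13. Agreement was looser for Peg3, at -2.39, -1.58 and -1.23, and for Zim1, at -2.11, -2.92 and -1.49. The Zim1 probe at -2.92 was not called and was not well above background on either passage 7 array. It read -8.90 and -6.84 there, against -5.24 and -4.66 at passage 2. Between passage means it was at least 4.20-fold lower, a bound that does not hold for each array. The Rasgrf1 probe at 0.88 was not well above background on any array.

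**Figure D4:**
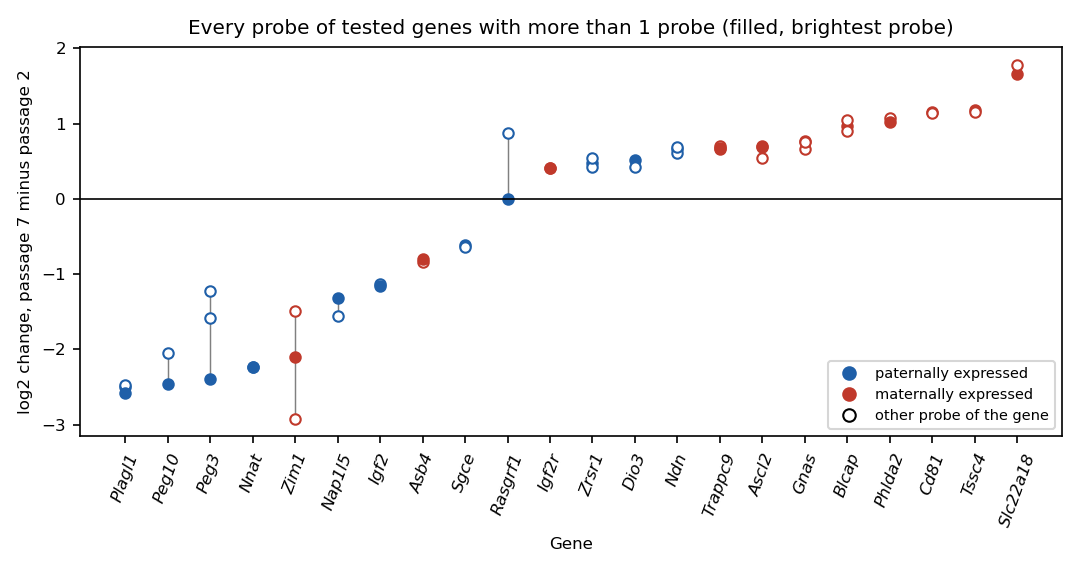
Change between passage 7 and passage 2 (log2, y axis) at every probe of the 22 tested imprinted genes with more than 1 probe, ordered by the brightest probe, which is filled. Blue marks paternally and red maternally expressed genes, open points are the other probes, and grey lines join the probes of a gene. Probes lie close together in most genes and spread most in Peg3, Zim1 and Rasgrf1.

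The letters of the members' promoters were examined because imprinting control regions are CpG-rich and because ZFP57, the zinc finger protein that protects imprints, is known to bind the methylated motif TGCCGC there. RefSeq promoter windows (build GRCm38.p6, 300 bases, 250 before to 50 after a gene's start) were found for 33 of the 39 members, 50 windows in all. The motif TGCCGC, searched on both strands (its reverse is GCGGCA), occurred in 10 of the 50 windows (20%), against 11.6% of all 32851 windows. Counted by gene, 9 of 33 members held it in at least 1 window (27.3%), against 13.1% of all 27025 genes. Of the 10 members called lower, 7 held it, namely Igf2, Mest, Plagl1, Grb10, Zim1, Nnat and Nap1l5. None of the 3 members called higher held it, nor did any of the 14 tested members with a window that were not called, and the other 2 with the motif, Snrpn and Meg3, were not tested. The windows of a gene can overlap, as those of Mest do, and a match shows only that the letters are there. Genes with more windows have more chances to hold a motif. The members called lower had 18 windows for 10 genes, against 19 windows for the 14 not called. The motif itself contains a CpG, and the members' windows held a median of 13.5 CpGs, against 7 over all windows. The shares of members and of all windows with the motif are therefore not matched for CpG content. Peg10, Sgce, Impact and Trappc9 were tested and not called but had no window. The members were selected on their change, and the motif was not counted over all genes called lower. A link between the motif and the change was therefore not tested. The windows of the 4 paternally expressed genes with the motif that are known to have an imprinting control region at their promoter follow, 5′ to 3′ on the gene's strand with the motif in capitals: Mest at chr6:30737800-30738099 (+ strand), Plagl1 at chr10:13090582-13090881 (+ strand), Nnat at chr2:157559828-157560127 (+ strand) and Nap1l5 at chr6:58907077-58907376 (- strand).
Mest: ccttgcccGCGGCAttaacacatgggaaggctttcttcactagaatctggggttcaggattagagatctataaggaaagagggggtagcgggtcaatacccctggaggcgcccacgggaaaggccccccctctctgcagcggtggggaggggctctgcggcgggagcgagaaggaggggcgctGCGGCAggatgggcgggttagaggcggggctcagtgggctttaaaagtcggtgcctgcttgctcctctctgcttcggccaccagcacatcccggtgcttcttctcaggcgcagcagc
Plagl1: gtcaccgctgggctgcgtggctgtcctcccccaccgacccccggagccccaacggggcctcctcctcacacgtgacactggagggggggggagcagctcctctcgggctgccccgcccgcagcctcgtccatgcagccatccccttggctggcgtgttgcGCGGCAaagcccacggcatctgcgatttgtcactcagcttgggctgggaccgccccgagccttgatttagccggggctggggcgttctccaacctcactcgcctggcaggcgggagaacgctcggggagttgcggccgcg
Nnat: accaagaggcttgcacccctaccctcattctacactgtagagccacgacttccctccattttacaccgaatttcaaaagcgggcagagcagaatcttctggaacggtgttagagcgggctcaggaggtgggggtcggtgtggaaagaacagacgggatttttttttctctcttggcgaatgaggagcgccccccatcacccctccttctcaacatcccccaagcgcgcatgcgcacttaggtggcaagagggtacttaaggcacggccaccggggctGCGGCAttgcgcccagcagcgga
Nap1l5: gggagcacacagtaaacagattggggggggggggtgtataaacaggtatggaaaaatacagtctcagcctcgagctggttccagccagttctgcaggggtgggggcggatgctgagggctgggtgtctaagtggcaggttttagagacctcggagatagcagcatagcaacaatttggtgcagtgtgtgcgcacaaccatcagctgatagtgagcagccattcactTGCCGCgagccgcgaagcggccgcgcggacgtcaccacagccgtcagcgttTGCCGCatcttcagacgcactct

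In Mest the motif began 242 and 67 bases before the start site, and in Plagl1 90 bases before it. In Nap1l5 a copy began 24 bases before the start site and another after it, and in Nnat the copy lay after the start site. CpG content ranged widely among members, from 1 to 48 CpGs in a window, with a median of 10 for paternally and 20 for maternally expressed members against 7 over all windows. The windows of the 2 genes with the largest changes are shown with each CpG in capitals, together with that of Peg3. Slc38a4, at chr15:97055907-97056206 (- strand) and the farthest upstream of its 3 windows, held 5 CpGs, Dlk1, at chr12:109452573-109452872 (+ strand), held 9, and Peg3, at chr7:6730370-6730669 (- strand), held 13. The Peg3 window overlaps that of Usp29 on the opposite strand by 263 bases, so the letters of the pair are largely the same.
Slc38a4: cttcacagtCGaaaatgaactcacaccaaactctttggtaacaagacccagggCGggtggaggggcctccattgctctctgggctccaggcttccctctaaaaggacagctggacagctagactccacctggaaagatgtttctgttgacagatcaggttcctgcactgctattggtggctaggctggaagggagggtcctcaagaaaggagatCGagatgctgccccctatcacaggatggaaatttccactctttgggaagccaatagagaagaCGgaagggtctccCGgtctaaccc
Dlk1: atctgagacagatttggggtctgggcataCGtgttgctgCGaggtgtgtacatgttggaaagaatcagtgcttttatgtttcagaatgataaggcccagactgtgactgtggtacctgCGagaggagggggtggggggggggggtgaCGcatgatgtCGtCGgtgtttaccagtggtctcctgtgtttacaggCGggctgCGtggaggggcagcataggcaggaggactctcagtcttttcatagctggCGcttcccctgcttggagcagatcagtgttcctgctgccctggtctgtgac
Peg3: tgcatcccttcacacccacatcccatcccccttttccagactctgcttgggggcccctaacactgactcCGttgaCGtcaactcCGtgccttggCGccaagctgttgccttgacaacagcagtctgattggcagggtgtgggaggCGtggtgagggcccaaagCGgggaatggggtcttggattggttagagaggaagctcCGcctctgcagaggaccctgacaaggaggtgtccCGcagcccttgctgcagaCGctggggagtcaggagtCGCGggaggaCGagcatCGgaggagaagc

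The windows of the 3 genes of the Kcnq1 domain that rose differed from each other, again with CpG in capitals. Slc22a18, at chr7:143473539-143473838 (+ strand), held 2 CpGs, while Tssc4, at chr7:143069118-143069417 (+ strand), and Cd81, at chr7:143052500-143052799 (+ strand), held 23 each.
Slc22a18: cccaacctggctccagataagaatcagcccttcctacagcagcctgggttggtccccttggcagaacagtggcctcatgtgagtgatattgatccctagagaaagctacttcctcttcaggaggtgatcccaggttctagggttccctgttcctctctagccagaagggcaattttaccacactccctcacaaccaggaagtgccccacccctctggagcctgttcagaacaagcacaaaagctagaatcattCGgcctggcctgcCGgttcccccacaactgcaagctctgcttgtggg
Tssc4: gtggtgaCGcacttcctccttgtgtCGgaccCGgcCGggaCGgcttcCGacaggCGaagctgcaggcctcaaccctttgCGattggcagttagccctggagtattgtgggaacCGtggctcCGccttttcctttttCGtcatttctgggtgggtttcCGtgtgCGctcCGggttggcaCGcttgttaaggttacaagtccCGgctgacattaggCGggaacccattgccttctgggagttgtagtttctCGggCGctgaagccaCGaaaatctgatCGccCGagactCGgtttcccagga
Cd81: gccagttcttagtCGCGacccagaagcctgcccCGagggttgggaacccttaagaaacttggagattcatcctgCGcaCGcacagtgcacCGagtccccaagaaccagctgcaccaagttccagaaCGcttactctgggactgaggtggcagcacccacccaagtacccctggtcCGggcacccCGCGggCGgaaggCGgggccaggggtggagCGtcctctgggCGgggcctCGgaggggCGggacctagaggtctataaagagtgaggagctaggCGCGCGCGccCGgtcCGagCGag

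Imprinted genes outside the 39 moved in both directions at about the background rate. Of 26 tested genes in this list of 32, 3 rose and 2 fell (19.2% called), with a median 0.02 above that of all genes. H13, a signal peptide peptidase, was 3.47-fold higher (1.79 ± 0.20, limma adjusted p = 0.0095) and Cobl, an actin nucleator, 2.59-fold higher (1.38 ± 0.24, adjusted p = 0.022). The third, Pon2, a paraoxonase named here after its value was seen, had a change of 1.25 ± 0.18, and its call ended without either passage 7 array. Ddc, the aromatic amino acid decarboxylase, was 3.12-fold lower (-1.64 ± 0.18, adjusted p = 0.0087) and Qpct, glutaminyl cyclase, 2.17-fold lower (-1.12 ± 0.18, adjusted p = 0.0185). With normexp background correction the changes were -0.01 for Ddc and -0.21 for Qpct, and with flagged backgrounds replaced both calls ended (-0.88 and -0.77, limma adjusted p = 0.102 and 0.0966). Cdkn1c, the maternally expressed CDK inhibitor p57 of the Kcnq1 domain, had levels of 2.97 and 2.92 at passage 7 and of 3.81 and 3.72 at passage 2. Its change was under 2-fold. It reached 2-fold with quantile normalisation (-1.16) and was smaller with the mean of all its probes (-0.66). The call of Cobl ended without passage 7 replicate 1 or 2 (limma adjusted p = 0.0669 and 0.0999), and that of Qpct without these (0.0916 and 0.129) or without passage 2 replicate 2 (0.0506).

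Among 12 tested genes that establish or keep imprints, 1 fell and none rose in limma (6 lower and 0 higher at an unadjusted p under 0.05, which 17.4% of all genes passed as lower), with a median -0.86 relative to all genes. The share called, 8.33%, was below the 19.4% over all genes. The gene that fell was Dnmt1, the methyltransferase that copies DNA methylation at replication. Its levels were 2.07 and 2.05 at passage 7 and 3.35 and 3.78 at passage 2, a 2.83-fold lower signal (-1.50 ± 0.22, adjusted p = 0.015 in limma), and its call ended without passage 7 replicate 1 (0.0586) or replicate 2 (0.0655). Of 11 tested genes of the IGF2 axis, 4 fell and 1 rose (45.5% called, against 19.4% of all genes), with a median -0.44 relative to all genes. Igf1, the growth factor that shares a receptor with IGF2, was 3.63-fold lower (-1.86 ± 0.18, adjusted p = 0.0072) and Igfbp5, an IGF-binding protein, 2.62-fold lower (-1.39 ± 0.20, adjusted p = 0.014), while Igfbp2, another of these binding proteins, was 3.24-fold higher (1.69 ± 0.21, adjusted p = 0.011). The change of Igf1 was -0.62 with normexp and -1.38 with flagged backgrounds replaced. Igfbp5 lost its call with the mean of all its probes (-0.54) and without passage 7 replicate 1 (adjusted p = 0.0647) or replicate 2 (0.0716). The list's count also rests on Igfbp3 and Igfbp4, binding proteins named here after their values were seen, whose calls ended without either passage 7 array.

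Markers of cell types were read beside these results. All 8 fibroblast markers with a probe were well above background on all 4 arrays. Their summed signal, relative to the array's 75th percentile, was 377 and 527 at passage 7 and 298 and 286 at passage 2. Each marker sum given here adds linear signals of different probes, so the brightest weigh most. Here that was Fn1, with levels of 7.28 and 7.72 at passage 7 and 6.67 and 6.67 at passage 2. Among the 8 markers 2 fell, Pdgfra and Lum, by 2.54 and by 3.00 on the log2 scale, and none was called higher. At an unadjusted p under 0.05, 3 were lower and 4 higher. The list's median change was 0.39, and Thy1, Col1a1, Vim and Fn1 had changes of 1.07, 1.04, 0.84 and 0.83 without being called. Col1a2 and Col3a1, also not called, had changes of -0.73 and -0.06. The epithelial markers summed to 0.17 and 0.23 at passage 7 and 0.79 and 0.68 at passage 2, with 2 of 4 lower, namely Krt8 and Krt18. Their changes were -0.19 and -0.29 with normexp, and with flagged backgrounds replaced both calls ended (-1.01 and -1.19, limma adjusted p = 0.108 and 0.0740). The macrophage markers summed to 0.73 and 0.93 at passage 7 and 1.74 and 1.67 at passage 2, with 2 of 3 tested lower and Ptprc not well above background on any array. The trophoblast markers summed to 0.56 and 0.79 at passage 7 and 0.39 and 0.29 at passage 2. Of these, Prl3d1 rose by 2.02 ± 0.26 while Elf5, Gcm1 and Prl3b1 were not well above background on any array. The neuronal markers summed to 6.17 and 5.97 at passage 7 and 5.02 and 5.90 at passage 2, with 1 of 5 tested higher and 1 lower and Rbfox3 not well above background on any array. The skeletal muscle markers summed to 0.21 and 0.26 at passage 7 and 0.30 and 0.23 at passage 2, and the endothelial markers to 0.45 and 0.37 at passage 7 and 0.40 and 0.41 at passage 2. The part of these cell types in the changes of the imprinted genes was not tested, and fewer cells of a type cannot be told apart from less RNA per cell.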

How the data were processed

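Total RNA (0.5 micrograms) of MEFs at both passages was Cy3-labelled and read on Agilent 1-colour arrays, 2 per passage. Per the file headers, spot intensities come from Agilent Feature Extraction 10.5.1.1, and the deposited processed signal intensity is background-subtracted. The authors' value table holds log2 values; the submitters' processing notes name limma, with the normalisation not given in the sources used here. Its columns correlate with the log2 median intensity of their arrays (r of at least 0.9986), and their medians are 6.24 and 6.14 for passage 7 and 6.30 and 6.30 for passage 2, so its scale is near log2 intensity while its centring stays unknown.

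From each log2 processed signal the 75th percentile of its array was subtracted. Spots flagged as outliers (14 to 61 per array) were left out, and spots of a probe were averaged. Probes were named by RefSeq accession (31089 of 31850 matched, table of GRCm38.p6). A probe was tested if either passage had it well above background on both arrays. A gene was represented by its probe with the highest mean, and was tested if that probe passed this filter. Changes were tested two-sided in limma 3.58.1 (R 4.3.3, lmFit and eBayes, 4 arrays, no covariate, Benjamini-Hochberg over all genes). The script was tested on simulated data. Where neither array of a passage was well above background, the lower bound sets the brighter passage's mean against that of the dim passage. Each dim array counts there with the higher of the probe's signal and that array's lowest signal well above background. The bound is on the fold between means and takes no account of the spread between arrays. Genes named are all members and, of each other list, up to 2 rises and 2 falls, plus Cdkn1c; the marker genes named were chosen after their values were seen. The members, their parental classes and the other lists were chosen with earlier results of these data known. Alternatives were other background corrections, scalings, filters, probe choices, variance models and thresholds, a block for the replicate number, and leaving out each array. The normexp correction used the median spot signal in place of the mean signal that had been planned.

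Same-numbered arrays of the 2 passages had deviations correlated at -0.17, and no label ties them, so the numbers were not taken as pairs.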

Additional observations from a re-analysis of the deposited data

How the results depend on the processing

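Each called member kept its direction under each alternative, except Zim1, which turned to 0.63 with normexp background correction. The members called were 13 when only probes well above background on all arrays were used or all probes were averaged. The median difference, paternal minus maternal, kept its sign in every alternative, from -1.98 to -1.70 with an array left out, -1.39 in the authors' value table, -0.72 with normexp and -1.09 with normexp and flagged backgrounds replaced, an alternative added after seeing the data. Normexp called 0 members and 0 genes in limma (665 genes at an unadjusted p under 0.05, 5 paternally expressed members lower and 1 maternally expressed member higher), against 721 genes higher and 479 lower, and 1 member higher and 6 lower, with flagged backgrounds replaced. The number of members called higher was 1 with quantile normalisation, 1 in the authors' value table (731 genes higher), 1 without a filter on dim probes (898 genes higher), 5 with no minimum fold, and 0 at an adjusted p under 0.01, where 5 members were lower and 274 genes were higher and 405 lower. With an array left out, 0 to 4 members were called higher and 7 to 10 lower, among 458 to 2071 genes higher and 678 to 1389 lower. The share of calls that were higher was 51.5%, against 42.2% under quantile normalisation, 41.1% under median scaling, 35.3% with the authors' values, 60.1% with flagged backgrounds replaced, 55.6% with probes well above background on all arrays, and 40% to 59.9% with an array left out. With the replicate block 0 members were higher, and 7 lower, with 532 genes higher and 661 lower (7 maternally expressed members were higher at an unadjusted p under 0.05). Igf2, Grb10, Slc22a18, Cd81, Nap1l5 and Tssc4 lost their calls there. A block on the crossed numbers, added after seeing the data, called 3 members higher and 11 lower. Median spots stood 4.28 and 2.94 times over background at passage 7, against 4.65 and 5.05 times at passage 2, and the SD between arrays, by a robust estimate, was 0.19 at passage 7 and 0.33 at passage 2. The causes of these differences were not tested.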
